A study of Mus musculus with 6 samples.

Results

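Of the 57127 genes in the count table of mouse whole epididymis, 10 are described here: the matrix metalloproteinase (MMP) genes Mmp2, Mmp3, Mmp7, Mmp9, Mmp11 and Mmp14, and the genes of the tissue inhibitors of metalloproteinases, Timp1, Timp2, Timp3 and Timp4. They were chosen by name, as the rows of the table with these symbols. These genes and the gene lists below were chosen with earlier results of these data known. Their counts beside the shares over all genes are therefore descriptive. All 10 were listed, and 8 had enough counts to be tested; Mmp3 and Timp4 did not. The libraries came from the whole epididymis of adult male mice of strain C57BL/6, with 3 libraries from wild type (WT) animals and 3 from Ocln-/- (Ocln-KO) animals, which lack occludin, a tight junction protein, in all tissues. The knockouts were bred from heterozygous parents. RNA was taken from 3 pairs of mice, but the methods also speak of pooled RNA, so n counts libraries, and whether each holds 1 mouse is not stated. The p-values measure only the spread between these libraries.

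MMPs are secreted or membrane-anchored zinc endopeptidases that cleave collagens, laminins, fibronectin and other proteins of the extracellular matrix, as well as growth factors and cell surface proteins. They are made as inactive precursors, in which a cysteine of the propeptide blocks the catalytic zinc until the propeptide is cut or displaced. TIMPs are small secreted proteins that bind active MMPs one to one and block them, and TIMP2 also takes part, together with MMP14, in the activation of the MMP2 precursor at the cell surface. In the mouse male tract MMP7 is known as an enzyme of the duct epithelium, while MMP2, MMP11 and MMP14 are known mainly from stromal cells.

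The libraries held from 30646424 to 38870780 counts, and 1 count equalled between 0.0267 and 0.0314 CPM, that is, counts per 1000000 of the library size scaled by edgeR's TMM factors. Ocln, the targeted gene, averaged 85.5 ± 6.51 CPM over the WT libraries and 15.1 ± 0.231 CPM over the Ocln-KO libraries (n = 3 per genotype, SD), with every Ocln-KO library under every WT library. An extraction note in the sample records names another organ, but the epididymal gene Crisp1 ran from 4439 to 16769 CPM in these libraries. Of the other markers checked, Lcn8 was low, at 0.781 to 2.3 CPM, and Slc26a4 had no more than 2 counts in any library. On the first principal component of log2 CPM, which held 47.2% of the variance, WT spanned -52.8 to -37.0, whereas the Ocln-KO scores were 17.7, 29.1 and 86.3. Ocln-KO replicate 3, the last of these, stood apart from the other Ocln-KO libraries, and values without it are given beside many of the results.

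Across the family, the matrilysin gene Mmp7 rose in Ocln-KO, the inhibitor gene Timp1 and the gelatinase gene Mmp2 were higher in every Ocln-KO library without passing the test, and the abundant inhibitor genes Timp2 and Timp3 were nearly level between the genotypes. In edgeR's quasi-likelihood test, with p-values adjusted over 19691 genes after Benjamini and Hochberg, 1 of the 8 tested members was higher at an adjusted p under 0.05, against 3.91% of all genes tested, and 0 were lower, against 5.04%. The member that passed also passed the fold change of more than 2 that the study's methods ask for, which 1.49% of all genes did, while 1.7% were lower by the matching limits and 0 members were. At an unadjusted p under 0.05, 3 members were higher, where 13.9% of all genes were, and 0 were lower, where 15.2% were. DESeq2 and limma-voom each called 2 members higher and 0 lower. Over all genes, DESeq2 called 538 higher and 522 lower with the fold change limits added, and limma-voom 243 and 369. By edgeR these counts were 293 and 335. The median log2 fold change of the 8 was 0.37, beside 0.01 over all genes tested. WT and Ocln-KO values were fully separated for 4 members, Mmp2, Mmp7, Mmp11 and Timp1, all higher in Ocln-KO, where 16.9% of all genes were higher without overlap, and for 0 members in the other direction, where 19.4% were lower without overlap.

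**Figure D1:**
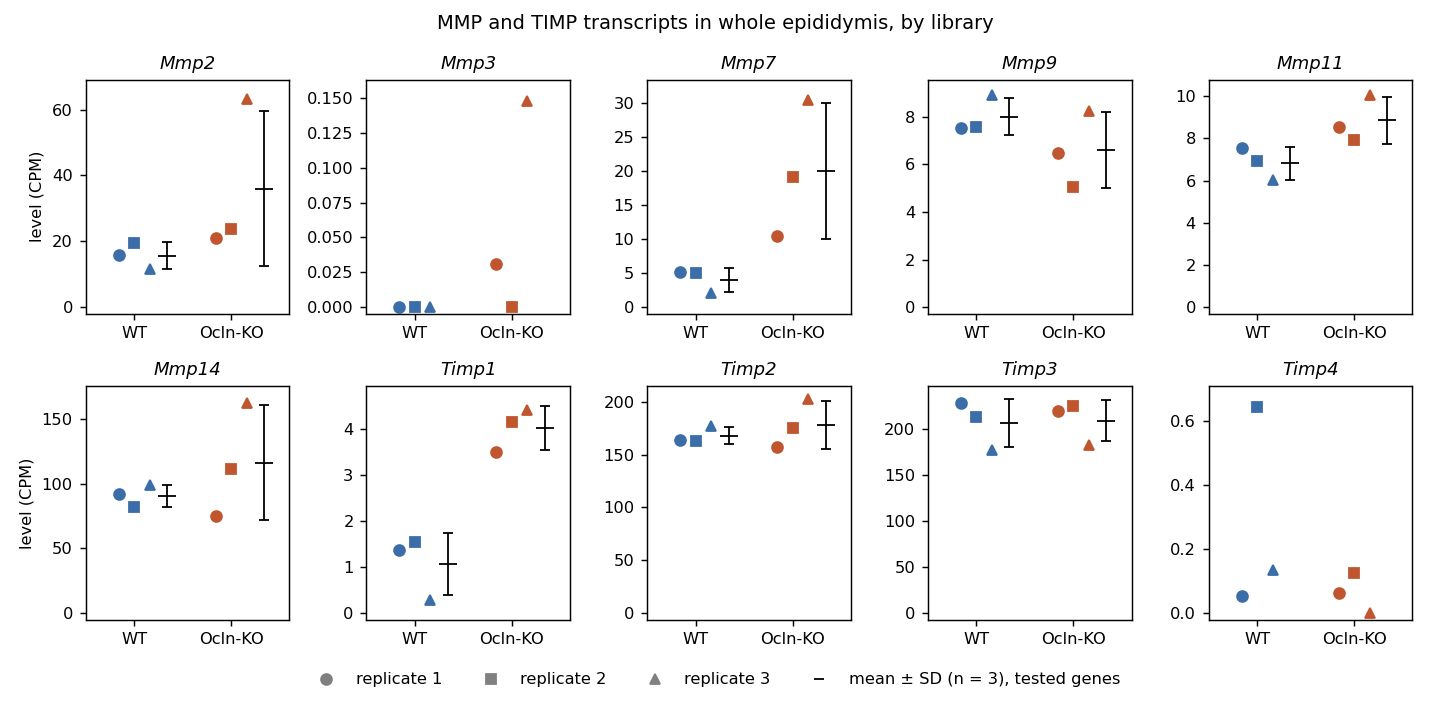
Level of each member in CPM (vertical axis, linear, each panel with its own scale from 0) in the 3 WT libraries (blue) and the 3 Ocln-KO libraries (orange), with a marker shape for each replicate number and, for the 8 tested genes, the mean ± SD beside them. For Mmp7, Timp1, Mmp2 and Mmp11 every Ocln-KO point lies above every WT point, and Ocln-KO replicate 3 is far above the rest for Mmp2, at 63.2 CPM.

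The promoter sequence of Mmp7 is shown because it is the member that rose, and that of Mmp3 because it lies in the same gene cluster and shares a motif with it. Those of Timp1 and Timp2 are shown because the first inhibitor was higher in Ocln-KO and the other is the most abundant one. Each runs from 250 bases before to 50 after a transcription start, read 5′ to 3′ on the gene's own strand from the RefSeq annotation of GRCm38.p6. Such sequences were matched for 8 of the 10 members, and not for Mmp2 and Mmp9. The Mmp7 sequence is chr9:7691840-7692139 on the plus strand, that of Mmp3 chr9:7445572-7445871 on the plus strand, that of Timp1 chrX:20869916-20870215 on the plus strand and that of Timp2 chr11:118355362-118355661 on the minus strand. Capitals mark letters that match 1 of 5 motifs searched on both strands: the AP-1 motif TGAGTCA, the TATA box TATAAA, the GC box GGGCGG, the CCAAT box CCAAT and the TCF/LEF motif ATCAAAG.
Mmp7: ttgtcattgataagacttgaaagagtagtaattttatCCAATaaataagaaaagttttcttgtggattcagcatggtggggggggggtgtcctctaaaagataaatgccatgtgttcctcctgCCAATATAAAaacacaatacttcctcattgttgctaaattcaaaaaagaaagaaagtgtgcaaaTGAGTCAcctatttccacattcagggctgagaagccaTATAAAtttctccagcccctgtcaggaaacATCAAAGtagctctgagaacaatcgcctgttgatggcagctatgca
Mmp3: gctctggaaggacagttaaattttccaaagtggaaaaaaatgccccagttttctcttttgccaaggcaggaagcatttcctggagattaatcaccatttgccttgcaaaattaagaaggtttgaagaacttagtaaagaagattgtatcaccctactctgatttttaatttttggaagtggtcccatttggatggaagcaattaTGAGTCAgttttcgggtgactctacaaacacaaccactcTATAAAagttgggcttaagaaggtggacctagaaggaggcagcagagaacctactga
Timp1: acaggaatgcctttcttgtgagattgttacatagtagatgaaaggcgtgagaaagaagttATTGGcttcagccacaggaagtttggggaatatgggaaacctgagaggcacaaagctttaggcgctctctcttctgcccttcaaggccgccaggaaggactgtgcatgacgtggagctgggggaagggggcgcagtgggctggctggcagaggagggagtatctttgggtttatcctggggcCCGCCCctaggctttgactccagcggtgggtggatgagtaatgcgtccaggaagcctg
Timp2: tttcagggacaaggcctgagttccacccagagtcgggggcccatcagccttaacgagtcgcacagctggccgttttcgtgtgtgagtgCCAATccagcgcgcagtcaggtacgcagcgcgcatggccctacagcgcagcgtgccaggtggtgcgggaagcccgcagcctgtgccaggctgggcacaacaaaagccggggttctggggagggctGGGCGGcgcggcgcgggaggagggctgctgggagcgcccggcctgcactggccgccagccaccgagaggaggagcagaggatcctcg

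Mmp7 held an AP-1 match that began 63 bases before the start and TATAAA matches 123 and 26 bases before it, the first of which overlaps a CCAAT match by 1 base. Mmp3 held an AP-1 match 46 bases and a TATAAA match 7 bases before the start. Of the 8 members with a sequence, Mmp3 and Mmp7 alone held the AP-1 and TATAAA letters in this window, and Mmp7 alone the TCF/LEF letters, in the 50 bases after the start. Over 32851 promoters of the same length, 5.2% held the AP-1 motif, 13.6% TATAAA and 3.73% the TCF/LEF motif. The sequences of Mmp11, Mmp14, Timp1, Timp2 and Timp3 held a GC box, as did 35.7% of all promoters, and those of Timp2, Timp3 and Mmp11 were 68.7%, 67% and 67% G and C, against 39% for this Mmp7 start and 40% for Mmp3. A further Mmp7 start, at chr9:7692091-7692390, held neither an AP-1 nor a TATAAA match. These are matches of letters, and binding at them was not measured.

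Mmp7 encodes matrilysin, a small secreted MMP without the hemopexin domain of its relatives, known for cleaving proteoglycans and cell surface proteins and for activating defensin precursors in the intestine. It lies on chromosome 9 from 7692090 to 7699585 on the plus strand, at the end of a cluster of MMP genes that also holds Mmp3 (7445822 to 7455975). The WT libraries had 5.11, 5.04 and 2.02 CPM, the Ocln-KO libraries 10.5, 19.1 and 30.4 CPM. Every Ocln-KO library lay above every WT library, and the values spread within each genotype as well, by 2.53 times between the lowest and highest WT library and by 2.9 times between the lowest and highest Ocln-KO library. The log2 fold change was 2.30 (standard error 0.46), which is 4.93-fold, and the Benjamini-Hochberg adjusted p from the edgeR quasi-likelihood test was 0.0296. Without Ocln-KO replicate 3 its log2 fold change was 1.87, with an adjusted p of 0.0258 by the same test. Without WT replicate 1, 2 or 3 the adjusted p was 0.105, 0.0750 and 0.1003, and without Ocln-KO replicate 2 it was 0.0650. An antisense gene, AV064505, overlaps an exon of Mmp7 by 123 bases and had a mean of 0.0195 CPM.

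By the smallest root mean square difference of log2 CPM centred on each gene's mean over the 6 libraries, the 3 genes nearest to Mmp7 among 16357 others with at least 1 CPM were Gm17727, Spink5 and Tchh. Spink5, which encodes a serine protease inhibitor best known from the skin, had 214, 368 and 124 CPM in WT, compared with 675, 1371 and 1462 CPM in Ocln-KO, and differed from the pattern of Mmp7 by 0.30 on the log2 scale. Gm17727 differed by 0.16 and Tchh, the trichohyalin gene, by 0.38. Like Mmp7, each of them was lowest in WT replicate 3 and highest in Ocln-KO replicate 3. Among the members, Timp1 was the nearest, in place 14 with a difference of 0.45, and Mmp2 followed in place 145 with 0.71. These distances describe 6 libraries that share the genotype contrast.

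Mmp3 encodes stromelysin-1, a secreted MMP that degrades many matrix proteins and activates other MMP precursors. It had 0 counts in each WT library and 1, 0 and 5 counts in Ocln-KO replicates 1, 2 and 3. A count of 0 allows up to 3 counts, or between 0.0802 and 0.0879 CPM in the WT libraries, an allowance for counting error only. At this depth Mmp3 was thus close to the limit in every library, it was not tested, and no fold change is given.

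Mmp2 and Mmp9 encode the gelatinases A and B, which cleave denatured collagens and type IV collagen of basement membranes. Mmp2 (chromosome 8, 92827291 to 92853420, plus strand) had 15.7, 19.6 and 11.6 CPM in WT, compared with 21.1, 23.6 and 63.2 CPM in Ocln-KO. The Ocln-KO libraries lay above the WT libraries, the lowest of them by a narrow margin, and replicate 3 lay 3-fold above replicate 1. The log2 fold change was 1.20 (standard error 0.42, edgeR quasi-likelihood adjusted p = 0.107). Without Ocln-KO replicate 3 it was 0.52, or 1.43-fold, with an adjusted p of 0.151 by the same test. Of 13 alternatives, 1 put the adjusted p under 0.05, the fit without a count filter at 0.0472, and the highest was 0.291.

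Mmp9 (chromosome 2, 164940780 to 164955850, plus strand) had 7.54, 7.59 and 8.91 CPM in WT, compared with 6.48, 5.05 and 8.26 CPM in Ocln-KO. The genotypes overlapped only through Ocln-KO replicate 3, and the log2 fold change was -0.28 (edgeR adjusted p = 0.429, standard error 0.21). Leaving out that replicate gave a log2 fold change of -0.48 (adjusted p = 0.168 by the same test). Scaled to kilobases of exon, the ratio of the Mmp2 level to the Mmp9 level was 2.19, 2.71 and 1.36 in WT and 3.41, 4.91 and 8.03 in Ocln-KO. This ratio within a library does not depend on the scaling between libraries, and it was higher in each Ocln-KO library than in any WT library.

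**Figure D2:**
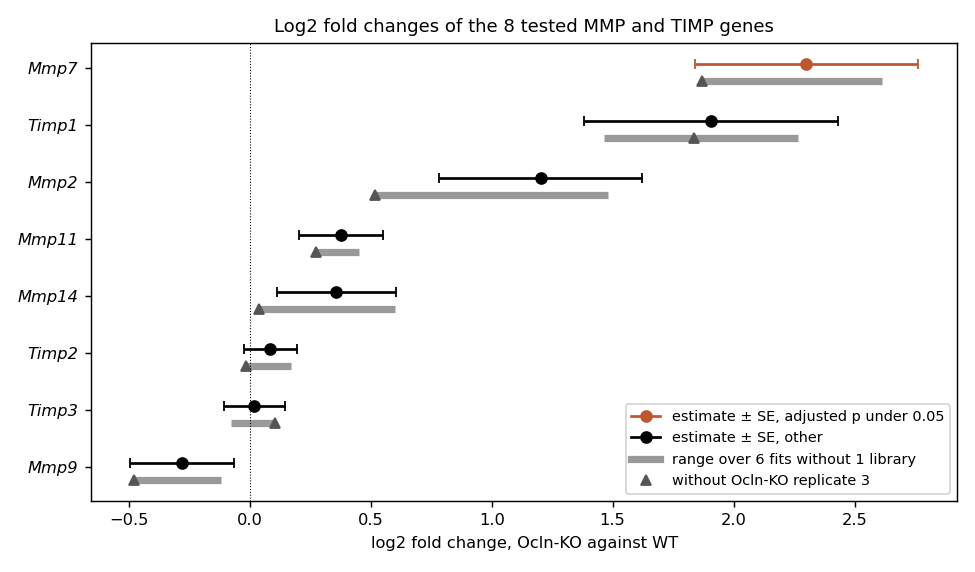
Log2 fold change of the 8 tested members (horizontal axis, Ocln-KO against WT) with its standard error, in orange where the adjusted p was under 0.05, above a grey bar for the range over the 6 fits that each left out 1 library. The triangle marks the fit without Ocln-KO replicate 3, which lies at 0.52 for Mmp2 and 0.04 for Mmp14, well under their estimates of 1.20 and 0.36.

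Mmp14, which encodes the membrane-type enzyme MT1-MMP, a collagenase of the cell surface and the activator of the MMP2 precursor, had the highest level per kb of exon among the 6 MMP genes in every WT library. It lies on chromosome 14 from 54431612 to 54445364 on the plus strand. It had 91.8, 81.8 and 98.7 CPM in WT, compared with 74.7, 112 and 163 CPM in Ocln-KO. The genotypes overlapped, since Ocln-KO replicate 1 was the lowest of all and replicate 3 the highest, and the log2 fold change of 0.36 (standard error 0.25) had an adjusted p of 0.380 in the edgeR fit. Leaving out Ocln-KO replicate 3 brought it to 0.04 and leaving out Ocln-KO replicate 1 to 0.60 (adjusted p = 0.0685 by the same test).

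Mmp11 encodes stromelysin-3, which, unlike most secreted MMPs, is activated inside the cell by furin. It lies on chromosome 10 from 75923222 to 75936496 on the minus strand. It had 7.54, 6.92 and 6.0 CPM in WT, compared with 8.54, 7.94 and 10.1 CPM in Ocln-KO. The libraries did not overlap, but the difference was small, 0.38 on the log2 scale with a standard error of 0.17 (edgeR adjusted p = 0.196). Leaving out Ocln-KO replicate 3 gave 0.27 (adjusted p = 0.375 by the same test). An exon of Mmp11 overlaps 155 bases of Chchd10 on the other strand, a gene with a mean of 59.5 CPM, and the strand setting of the counting is not given in the sources used here.

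Timp1 encodes an inducible secreted inhibitor, known to bind the MMP9 precursor as well as active MMPs. It lies on chromosome X from 20870166 to 20874735 on the plus strand, inside Syn1, with which it shares no exon. The WT libraries had 1.36, 1.55 and 0.296 CPM, from 51, 53 and 11 counts, and the Ocln-KO libraries 3.49, 4.14 and 4.41 CPM. The Ocln-KO libraries lay close together and above the WT libraries, of which replicate 3 stood low. The log2 fold change was 1.91 (standard error 0.53), or 3.75-fold, and the edgeR quasi-likelihood adjusted p was 0.0615, above the threshold. It was 0.00265 with DESeq2, 0.0419 with limma-voom and 0.0276 without a count filter, and the other 10 alternatives kept it above 0.05, up to 0.152. Without Ocln-KO replicate 3 the log2 fold change was 1.84 (adjusted p = 0.0743), and without WT replicate 3 it was 1.46 (adjusted p = 0.0857), both by the edgeR test.

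Timp2, the widely expressed partner of MMP14 and MMP2, and Timp3, an inhibitor that binds to the matrix, were the most abundant inhibitor genes. Timp2 (chromosome 11, 118301069 to 118355740, minus strand) had 164, 163 and 177 CPM in WT, compared with 157, 175 and 202 CPM in Ocln-KO. Timp3 (chromosome 10, 86300372 to 86349506, plus strand) had 228, 213 and 177 CPM in WT, compared with 219, 224 and 183 CPM in Ocln-KO. Both overlapped between the genotypes, with log2 fold changes of 0.08 (standard error 0.11, adjusted p = 0.652) for Timp2 and 0.02 (standard error 0.13, adjusted p = 0.938) for Timp3 in the edgeR fit. The small values changed sign in some fits: Timp2 was -0.017 without Ocln-KO replicate 3, and Timp3 was -0.076, -0.010 and -0.035 without WT replicate 3, Ocln-KO replicate 1 and Ocln-KO replicate 2. Timp3 lies within Syn3 and shares 1733 bases of an exon with it on the other strand, and Syn3 had a mean of 36.5 CPM, so that the split of reads between these genes is uncertain.

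Timp4, an inhibitor known mainly from heart and muscle, had 2, 22 and 5 counts in WT and 2, 4 and 0 counts in Ocln-KO. It was not tested, and 22 of the 29 WT counts came from replicate 2. The gene lies within Syn2 on the other strand and shares 90 exon bases with it.

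Levels can be compared between genes only per length. Divided by the length of all exons of each gene in the GENCODE annotation of GRCm38, the order in WT was Timp2, Timp3, Mmp14, Mmp2, Mmp7, Mmp11, Mmp9 and Timp1, at 43.1, 25.3, 15.2, 4.64, 3.8, 2.45, 2.26 and 1.21 CPM per kb, with Timp4 and Mmp3 under 0.05. The ranges over the WT libraries did not touch between Timp2, Timp3 and Mmp14, whereas those of Mmp2 and Mmp7, of Mmp7 and Mmp11 and of Mmp11 and Mmp9 overlapped. By their means, Timp2, Timp3 and Mmp14 also held the first 3 places in Ocln-KO, but the range of Mmp14 there, 12.5 to 27.3, overlapped that of Timp3, 22.4 to 27.5, and in replicate 3 both Mmp14 and Mmp7 were above Timp3. The mean of Mmp7, 18.7 CPM per kb, was above that of Mmp2, 10.7, with overlapping ranges, and Timp1 at 4.52 stood above Mmp11 and Mmp9. The range of Mmp7 in Ocln-KO, from 9.81 to 28.5, covered that of Mmp14, so these neighbours cannot be ordered.

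Summed over the 6 MMP genes, the level was 29.7, 28.9 and 26.6 CPM per kb in WT and 33.5, 47.9 and 80.5 in Ocln-KO. The sum over the 4 TIMP genes was 71.6, 69.8 and 67.5 CPM per kb in WT and 71.1, 77.1 and 79.3 in Ocln-KO. The ratio of the summed TIMP level to the summed MMP level was therefore 2.41, 2.42 and 2.54 in the WT libraries and 2.12, 1.61 and 0.985 in the Ocln-KO libraries. Each Ocln-KO ratio was under each WT ratio, without overlap, and replicate 3 was the lowest. Mmp14 made up 51.9%, 47.5% and 62.3% of the MMP sum in WT and 37.4%, 39.1% and 33.9% in Ocln-KO. Mmp7 made up 16.1%, 16.3% and 7.12% in WT and 29.3%, 37.3% and 35.3% in Ocln-KO. Timp2 and Timp3 together held 97.3% to 99.5% of the TIMP sum in WT and 93.7% to 94.5% in Ocln-KO. These sums weigh transcripts, not protein or activity, and no test was run on them. They leave out the other MMP genes in the table, and the ratio restates in part the Mmp7, Mmp2 and Mmp14 values given above. Of these, Mmp14 overlapped between the genotypes, at 15.4, 13.7 and 16.6 CPM per kb in WT and 12.5, 18.7 and 27.3 in Ocln-KO.

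**Figure D3:**
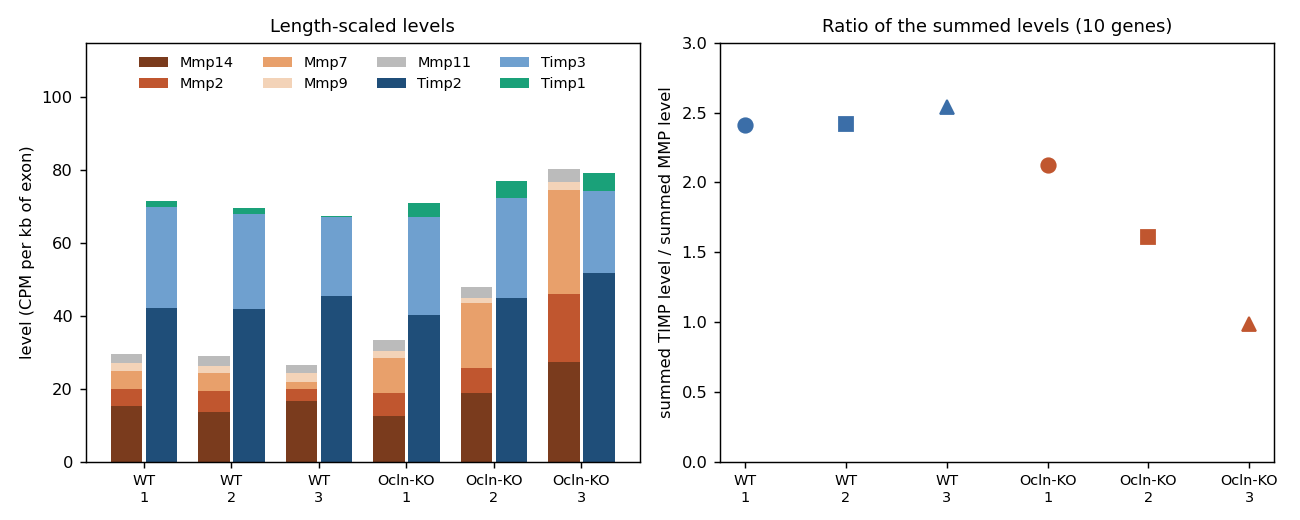
Left, stacked bars of the level in CPM per kb of exon for 5 MMP genes (left bar, brown to grey) and 3 TIMP genes (right bar, blue and green) in each library; Mmp3 and Timp4 are too low to see. Right, the ratio of the summed TIMP to the summed MMP level over all 10 genes, which lies between 2.41 and 2.54 in WT and at 2.12, 1.61 and 0.985 in Ocln-KO.

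Of 17 other MMP genes in the table, 10 were tested, with 1 higher and 0 lower at an adjusted p under 0.05 by the edgeR test. Over all genes tested, 3.91% were higher and 5.04% lower. At an unadjusted p under 0.05, 3 were higher and 0 lower, against 13.9% and 15.2% of all genes. DESeq2 called 3 higher and 0 lower. With the fold change limits added, it also called more of all genes, 538 higher and 522 lower against 293 and 335 by edgeR. The median log2 fold change of the 10 was 0.14. Mmp25, a membrane-anchored MMP known from leukocytes, rose from 0.255 ± 0.102 to 1.01 ± 0.108 CPM (n = 3 per genotype, SD), by 1.97 on the log2 scale with a standard error of 0.46 (edgeR quasi-likelihood adjusted p = 0.0419), on 5 to 13 counts in WT and 29 to 38 in Ocln-KO. Without Ocln-KO replicate 3 its adjusted p was 0.0785, and over 12 alternatives it ran from 0.0112 to 0.142, with 0 genes of this list higher in each of the 6 edgeR fits without 1 library and 3 higher in each at an unadjusted p under 0.05. The others with the highest mean CPM, not scaled for length, were Mmp28 and Mmp17, at log2 differences of 0.16 and 0.02 (edgeR adjusted p = 0.574 and 0.954). Mmp19, singled out after its values were seen, had 2.19, 2.52 and 1.48 CPM in WT, compared with 4.52, 3.80 and 8.85 CPM in Ocln-KO (edgeR adjusted p = 0.0514). Mmp1b and its close paralog Mmp1a, also singled out after their values were seen and with reads that the counting may have split, were lower in each Ocln-KO library, down to 4 and 0 counts in replicate 3, with adjusted p = 0.173 and 0.459 by the same test.

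Of 29 genes that activate, anchor, bind or inhibit MMPs or belong to the same proteolytic system, 25 were tested. By the edgeR test 5 were higher and 1 lower, against 3.91% and 5.04% of all genes tested. The median log2 fold change of the 25 was 0.16. Thbs1, the gene of the matrix protein thrombospondin-1, rose from 42.5 ± 3.26 to 70.1 ± 8.16 CPM (n = 3 per genotype, SD), a log2 difference of 0.72 (edgeR adjusted p = 0.0184). Lcn2, which encodes a lipocalin whose human form is known to form a complex with MMP9, rose from 113 ± 24.3 to 230 ± 61.4 CPM, or by 1.02 as a log2 difference (n = 3 per genotype, SD, edgeR adjusted p = 0.0362). Cd44, the hyaluronan receptor that can hold MMP7 and MMP9 at the cell surface, rose by 0.99 (edgeR adjusted p = 0.0342), and Plat, the tissue plasminogen activator gene, by 0.68 (edgeR adjusted p = 0.0297). Adamts1, a gene of a related secreted protease, rose by 0.39 (edgeR adjusted p = 0.0441). Furin, the convertase that activates MMP11 and MMP14, fell from 255 ± 15.6 to 196 ± 5.44 CPM (n = 3 per genotype, SD), a log2 difference of -0.38 (edgeR adjusted p = 0.0370). The others with the highest mean CPM, a scale without gene length, were Lrp1, an uptake receptor of MMP-TIMP complexes, and Adam10, at log2 differences of 0.12 and 0.19 (edgeR adjusted p = 0.558 and 0.372). Without Ocln-KO replicate 3, 4 were higher and 1 lower, since Adamts1 lost its call (log2 difference 0.36, edgeR adjusted p = 0.0806), but without Ocln-KO replicate 2 there were 2 and 0, and without any 1 of the WT replicates 0 in either direction by edgeR, where 6 to 8 were higher and 2 to 3 lower at an unadjusted p under 0.05. Calls over all genes, with the fold change limits added, fell too. They went from 293 higher and 335 lower in the full fit to 4 and 19, 56 and 103, and 15 and 32 without WT replicates 1, 2 and 3. In the full fit, 13.9% and 15.2% of all genes had an unadjusted p under 0.05.

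All 32 genes of matrix proteins listed as substrates or neighbours of MMPs were tested, with 4 higher, 1 lower and a median log2 fold change of 0.28. Over all genes tested, 3.91% were higher and 5.04% lower. Fn1, the fibronectin gene, rose from 91.6 ± 7.99 to 233 ± 93.3 CPM (n = 3 per genotype, SD), a log2 difference of 1.35 (edgeR adjusted p = 0.0316). Tnc, the tenascin-C gene, and Fbln2, a fibulin gene, rose by 1.36 and 1.30 (edgeR adjusted p = 0.0490 and 0.0499), and Lama5, a laminin chain of basement membranes, by 0.35 (edgeR adjusted p = 0.0499). Col1a1 and Col1a2, those with the highest mean CPM among the others before any scaling for length, differed by 0.12 and 0.32 (edgeR adjusted p = 0.872 and 0.534), with Ocln-KO replicate 3 at 1490 and 1416 CPM against 423 and 552 CPM in replicate 1. Without Ocln-KO replicate 3, 2 of the matrix genes were higher and 1 lower. Fn1 and Fbln2 kept their calls at log2 differences of 1.06 and 0.85 (edgeR adjusted p = 0.0270 and 0.0459). Tnc and Lama5 lost theirs at log2 differences of 1.13 and 0.31 (edgeR adjusted p = 0.0697 and 0.0850). Without Ocln-KO replicate 2 or any 1 of the WT replicates 0 were called in either direction by edgeR, where 4 to 8 were higher and 1 to 3 lower at an unadjusted p under 0.05. The calls over all genes, with the fold change limits added, fell in these fits as well. They were 116 higher and 182 lower without Ocln-KO replicate 2, against 293 and 335 in the full fit, and fewer without a WT replicate. In the full fit, 13.9% and 15.2% of all genes had an unadjusted p under 0.05.

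**Figure D4:**
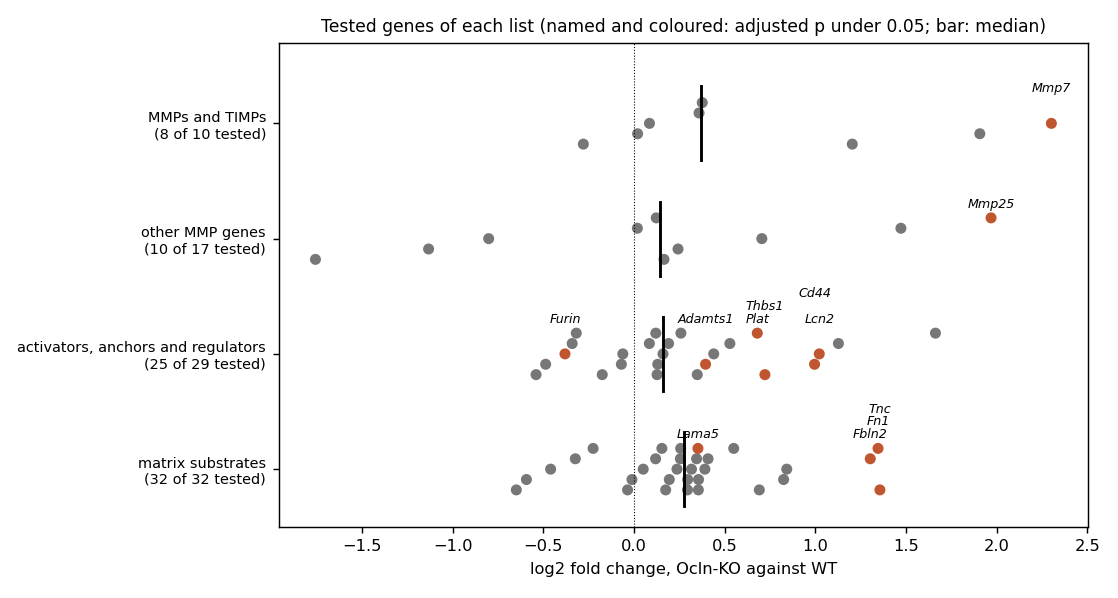
Log2 fold change (horizontal axis, Ocln-KO against WT) of the tested genes in 4 lists, 1 dot a gene and without 1 matrix gene, with named orange dots for an adjusted p under 0.05 and a black bar at the median of each whole list. The medians lie between 0.14 and 0.37, and Mmp7, at 2.30, has the largest value shown.

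In whole tissue, fewer cells of a type and less RNA per cell cannot be told apart. Markers of several cell types moved with the genotypes or with Ocln-KO replicate 3. Beside the marker counts below, 3.91% of all genes were called higher and 5.04% lower by the edgeR test. At an unadjusted p under 0.05 the shares were 13.9% and 15.2%. The summed level of 6 fibroblast markers was 478 to 535 CPM in WT, compared with 565, 610 and 903 CPM in Ocln-KO replicates 1, 2 and 3, with 0 of 6 called in either direction and 4 higher and 0 lower at an unadjusted p under 0.05 by the edgeR test. Of these, Lum had 74.9 CPM in Ocln-KO replicate 3 and 11.8 to 22.5 CPM in the other libraries. Dcn, Thy1 and Pi16 were also highest in replicate 3. Pdgfra was highest in Ocln-KO replicate 2, at 256 CPM against 246 CPM in replicate 3. Dpt went the other way, with a log2 difference of -0.27 and 4.79 CPM in Ocln-KO replicate 3 against 3.88 to 12.3 CPM in WT. Mmp2, Mmp14, Col1a1, Col3a1 and Bgn were highest in Ocln-KO replicate 3 as well. A peak there was not particular to these 5 genes. Mmp7, Mmp11, Timp1 and Timp2 were also highest in that replicate, while Mmp9 and Timp3 were not. The part of the marker difference in the values of any of these genes was not tested. The summed level of 6 macrophage markers was 148 to 182 CPM in WT, compared with 189, 200 and 335 CPM in Ocln-KO (0 of 6 called, 4 higher and 0 lower at an unadjusted p under 0.05). Of 6 smooth muscle markers, 1 rose, Myh11, and 5 were higher and 0 lower at an unadjusted p under 0.05 by the edgeR test. Their sum was 1182 to 1423 CPM in WT and 1601 to 2120 CPM in Ocln-KO. Of 6 neutrophil markers, Elane had no count, and S100a8, S100a9, Ly6g and Mpo did not exceed 6 counts in any library. The sixth, Csf3r, had 39, 72 and 17 counts in WT and 61, 79 and 152 counts in Ocln-KO, with overlap, a log2 difference of 1.30 and an edgeR adjusted p of 0.176.

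Epithelial markers moved less evenly, with the same shares over all genes (3.91% higher and 5.04% lower, and 13.9% and 15.2% unadjusted) as background. Of 6 basal cell markers, 5 were tested and 1, Krt14, rose, by 0.58 on the log2 scale (edgeR adjusted p = 0.0276). At an unadjusted p under 0.05, 2 were higher and 0 lower, and the sum was 216 to 229 CPM in WT and 225 to 264 CPM in Ocln-KO. Of 6 clear cell markers, 5 were tested and 4 fell, and 0 were higher and 5 lower at an unadjusted p under 0.05. Their sum was 84.5 to 106 CPM in WT and 42.2 to 52.9 CPM in Ocln-KO. Of 6 principal cell markers, 1 fell, Aqp9, and 0 were higher and 2 lower at an unadjusted p under 0.05 by the edgeR test. Their summed level spanned 26098 to 30589 CPM over the WT libraries, against 17803 to 25236 CPM for the knockouts. This lower sum rested mostly on Crisp1, whose mean went from 14891 to 7852 CPM without overlap (log2 difference -0.92, edgeR adjusted p = 0.0855). Lcn5, Lcn8, Adam7 and Cdh1 overlapped between the genotypes, at log2 differences of 0.04, 0.04, -0.11 and -0.27. Endothelial, lymphocyte and adipocyte markers had 0 called among the 6, 2 and 5 tested, with 1, 1 and 0 higher and 1, 0 and 3 lower at an unadjusted p under 0.05. The part of these differences in the values of Mmp7 and Timp1 was not tested.

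**Figure D5:**
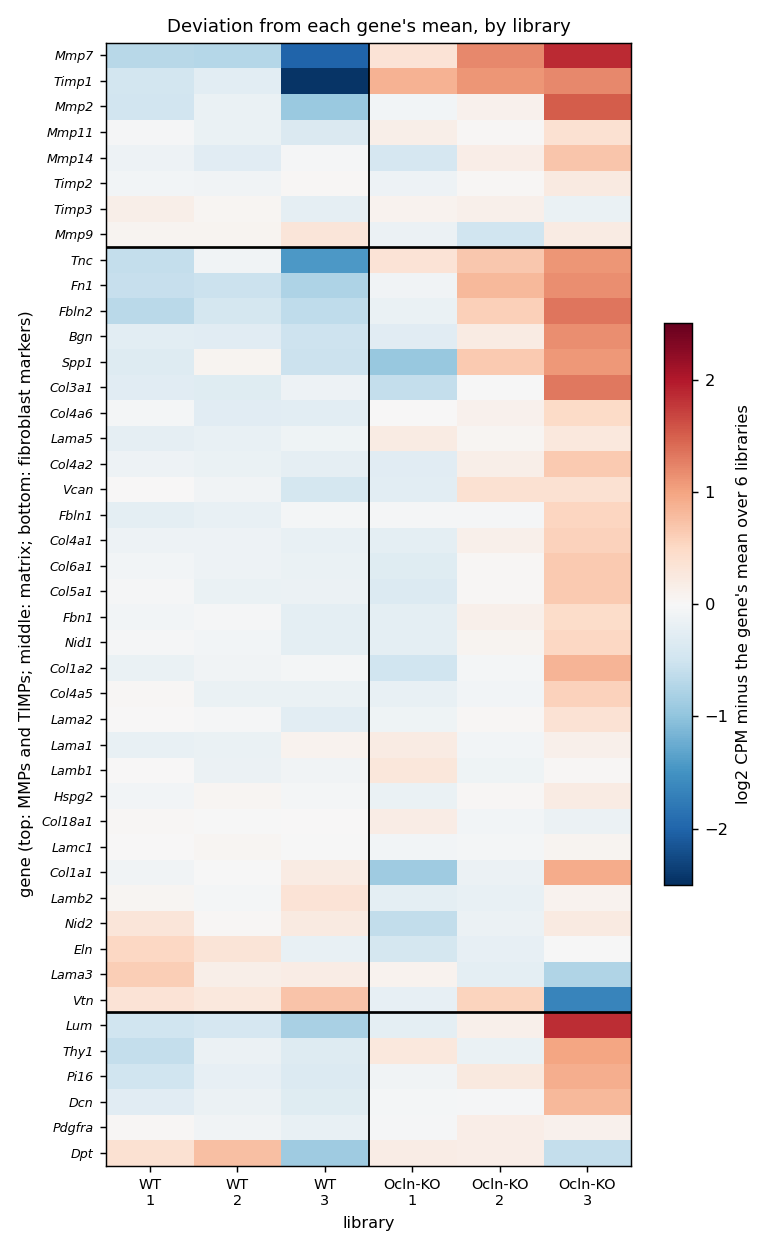
Log2 CPM minus the gene's mean over the 6 libraries (colour scale from -2.5 to 2.5) for the 8 tested members, the matrix genes but 1 and the fibroblast markers (rows, ordered within each block by the difference between genotypes), with the libraries in columns. Among the members, Mmp7, Timp1 and Mmp11 lie above 0 in all 3 Ocln-KO columns. Mmp7, Timp1 and Mmp11, like Mmp2, Bgn, Col3a1 and Lum, are highest in Ocln-KO replicate 3. The fibroblast markers Dpt and Pdgfra do not peak in that replicate.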

How the data were processed

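The authors sequenced rRNA-depleted whole-epididymis RNA as directional, paired-end libraries, aligned the reads to GRCm38 with hisat2 (HISAT2 2.0.4 in the submitters' processing notes) and counted them with HTSeq. The deposited values are raw counts per gene and library, without normalization; the counting mode, the strand setting and the treatment of reads with several alignments are not given in the sources used here. Columns were matched to samples by title, with 0 left over.

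The count test was run in edgeR 4.0.16 under R 4.3.3 (filterByExpr, TMM, estimateDisp, glmQLFit, glmQLFTest), and 19691 of 57127 genes were tested with Benjamini-Hochberg adjustment over all of them. To obtain a standard error, the size of the log2 fold change was divided by √F of the test. A limit of 3 counts was used for low genes, and covers counting error only. Alternatives were DESeq2 1.42.0, limma-voom (limma 3.58.1), RLE factors, scaling by total counts only, omission of the filter, a minimum of 10 counts per library, the replicate number as a block and the removal of each library in turn. On simulated counts with 200 genes changed 4-fold, among 19308 genes tested, edgeR recovered 79% and called 11 unchanged genes, limma-voom 75% and 10, and DESeq2 84% and 53. Replicates of a genotype differed by more than sampling noise. Exon lengths and gene coordinates come from GENCODE and promoters from RefSeq, both on GRCm38.

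Named are the 10 members. From each further gene list, those with an adjusted p under 0.05 are named, up to 6, and the 2 of the rest with the highest mean CPM; 1 matrix gene that passed is not reported here. The members and lists were chosen with earlier results of these data known.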

Additional observations from a re-analysis of the deposited data

How the results depend on the processing

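Over 13 alternatives the log2 fold change of Mmp7 stayed between 1.87 and 2.61, that of Timp1 between 1.46 and 2.27, that of Mmp2 between 0.52 and 1.48, that of Mmp11 between 0.27 and 0.46, that of Mmp14 between 0.04 and 0.60 and that of Mmp9 between -0.48 and -0.12, while Timp2 ran from -0.017 to 0.17 and Timp3 from -0.076 to 0.11, with sign changes only in fits without 1 library: Timp2 reversed to -0.017 without Ocln-KO replicate 3, and Timp3 to -0.076, -0.010 and -0.035 without WT replicate 3, Ocln-KO replicate 1 and Ocln-KO replicate 2. The adjusted p of Mmp7 was under 0.05 in 8 of the 13, and 1.09e-06 with DESeq2; it was 0.0247 with total counts only, which moved the median of all genes from 0.01 to 0.09.

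Members called higher, 1 in the report, were 2 with DESeq2 and with limma-voom (Mmp7 and Timp1), 3 without a count filter (with Mmp2), and between 0 and 1 with 1 library left out; in the 4 fits with 0, without a WT library or Ocln-KO replicate 2, between 2 and 3 had an unadjusted p under 0.05. Other MMP genes called higher were 3 with DESeq2 and with total counts only, 2 without a count filter and 0 in all 6 fits without 1 library, where 3 had an unadjusted p under 0.05, and those called lower ran from 0 to 1. Of the activators, anchors and regulators, 0 to 7 were higher and 0 to 1 lower without 1 library, and 2 were lower with DESeq2 and with at least 10 counts in every library and 0 with total counts only, where 2 had an unadjusted p under 0.05. Of the matrix genes, 0 to 4 were higher and 0 to 1 lower without 1 library. Over all genes, the 293 higher and 335 lower DEGs (adjusted p under 0.05 and fold change over 2 or under 0.5) were 538 and 522 with DESeq2, and with 1 library left out between 4 and 401 higher and between 19 and 389 lower, the lowest without WT replicate 1. The cause of these shifts was not tested, though fits without a library rest on fewer samples.

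The labels give both genotypes replicate numbers 1 to 3, but deviations of same-numbered libraries from their genotype means did not correlate (r = -0.05, -0.03 and -0.00 over genes), so the numbers were not taken as pairs. With a replicate block, 10 genes were higher and 30 lower DEGs, 0 members, 0 other MMP genes, 0 regulators and 0 matrix genes were called in either direction, and Mmp7 had a log2 fold change of 2.24 with an adjusted p of 0.108; 2 members, 3 other MMP genes, 7 regulators and 6 matrix genes were higher at an unadjusted p under 0.05.

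Each group held 3 libraries. The rarer genes rest on few counts, at most 38 in a library for Mmp25 and 149 for Timp1.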
